A study of Mus musculus with 9 samples.

Results

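The 8 genes described here encode the transcription factors that are best known for holding cells in a mesenchymal state. They are the Snail zinc finger repressors Snai1 and Snai2, the basic helix-loop-helix factors Twist1 and Twist2, the zinc finger and homeodomain repressors Zeb1 and Zeb2, and the paired-related homeodomain factors Prrx1 and Prrx2. They were chosen by name as families of related factors, with earlier results of these data known. All 8 were found among the 50686 genes of the count table. RNA-Seq had been performed on control osteoblasts of the mouse line MC3T3-E1, on the same line after 14 days in 10 μM SB216763, and on mouse pulmonary endothelial cells (ECs), with n = 3 libraries per group. SB216763 inhibits the GSK3 kinases, and the question of the study was whether it moves osteoblasts toward an endothelial program. MC3T3-E1 is 1 immortalized line from mouse calvaria, so the 6 osteoblast libraries share a single genetic source. The ECs were isolated by FACS and carried no treatment, and the study does not state whether they were cultured before RNA isolation. The sources used here do not give the days in culture or the vehicle of the control osteoblasts, nor the strain, age, or number of mice behind the ECs.

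Snail and ZEB factors bind E-boxes, short DNA motifs found in epithelial genes such as the cadherin Cdh1, and recruit corepressors to them. Twist factors bind DNA as dimers with E proteins and are held back by Id proteins, which take the E proteins away. The 2 Prrx factors mark early limb and craniofacial mesenchyme, from which calvarial osteoblasts derive. Several of these factors act in epithelial-to-mesenchymal transition and in the endothelial counterpart of that process, in which ECs take on mesenchymal traits. Snai1 and Twist1 are short-lived proteins, and phosphorylation of Snai1 by GSK3 marks it for degradation. The libraries measured RNA, so the amounts of the proteins were not measured.

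The libraries held between 30990107 and 68946333 counts, and 3 counts, taken as the lowest level this depth could show, corresponded to between 0.0435 and 0.0968 CPM, the count scaled to the total of its library. Levels below are CPM after TMM normalization, a scaling that makes libraries of different composition comparable. Of all genes, 15531 passed the edgeR expression filter and were tested with its quasi-likelihood test in 1 fit of the 9 libraries. A gene was called at a Benjamini-Hochberg adjusted p-value (FDR) under 0.01, and a 4-fold call also needed a log2 fold change at or past 2 in either direction. The labeled cell types were checked against marker genes. The summed level of 7 osteoblast markers was 43921 to 59349 CPM in the control osteoblasts, 8068 to 8339 CPM in the treated osteoblasts, and 45.1 to 64.5 CPM in the ECs. In osteoblasts this sum reflects mainly Col1a1 and Col1a2, with means of 24511.5 and 27830.5 CPM in controls and 2732 and 5322 CPM in treated cells. All 7 markers were called lower with treatment, but the treated mean ran from 1.38% of control for Alpl to 73.8% for Runx2. The summed level of 8 endothelial markers was 6684 to 6850 CPM in the ECs, 2.52 to 3.20 CPM in the control osteoblasts, and 2.48 to 3.04 CPM in the treated osteoblasts, where each of the 8 was below 1 CPM. Replicates differed by more than counting error, with a chi-square statistic per gene, which grows with depth, of 29.9 to 115 between control libraries, 3.44 to 30.0 between treated libraries, and 3.05 to 4.95 between EC libraries. In bulk RNA, fewer cells of a type and less RNA per cell cannot be told apart.

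SB216763-treated osteoblasts had less Snai2, Twist1, Prrx1, Snai1, and Zeb1 RNA than control osteoblasts, and more Zeb2 and Prrx2 RNA. Of the 8 factors, 7 passed the expression filter, and Twist2 did not. All 7 were called, 2 of them higher and 5 lower in the treated cells, and 0 reached the 4-fold threshold with edgeR, DESeq2, or limma-voom. Over all genes tested, 32.9% were called higher and 32% lower, so that a call alone said little in this comparison. The 4-fold calls were 3.81% higher and 5.84% lower over all genes. The median log2 fold change of the 7 factors was -0.30, against 0.01 over all genes. In the Snail, ZEB, and Prrx pairs, the 2 members moved by different amounts or in opposite directions.

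In ECs, Twist1, Prrx1, and Prrx2 were nearly missing, Snai2 was much lower than in control osteoblasts, and Snai1, Zeb1, and Zeb2 were closer to the control level. The mean level in ECs was 0.0699% of the control level for Twist1, 0.472% for Prrx1, and 0.115% for Prrx2. It was 61.6% for Snai1, 18.7% for Snai2, 84.8% for Zeb1, and 90.7% for Zeb2. All 7 factors tested were called lower in ECs than in control osteoblasts and 0 were called higher, against 37.9% lower and 39% higher over all genes. Of these, 4 were 4-fold lower (Snai2, Twist1, Prrx1, and Prrx2) and 0 4-fold higher, where the background was 9.87% and 13.5%. Twist1 and Prrx2, at 14 counts or fewer in every EC library, passed the filter through the osteoblast libraries, so their difference was fixed by it. The same control libraries served both comparisons, so the values of the comparisons are not independent.

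**Figure D1:**
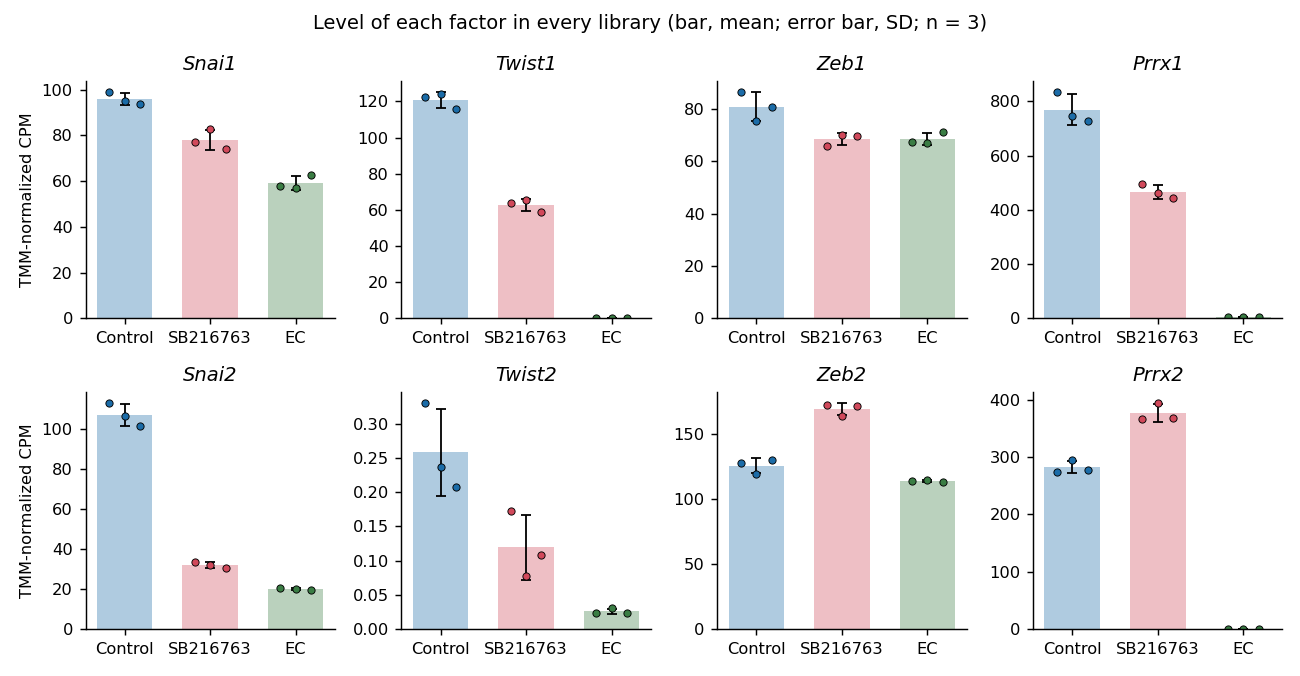
TMM-normalized CPM of the 8 factors in each of the 9 libraries, with the library groups on the horizontal axis and a separate vertical scale for each gene. Points are libraries, bars are means, and error bars are SD (n = 3). Snai2 and Twist1 fell from control to treated osteoblasts, Zeb2 and Prrx2 rose, and Twist1, Prrx1, and Prrx2 were near 0 in the ECs. The values of Twist2 rest on 1 to 21 counts per library.

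Snai2, also known as Slug, is a repressor of epithelial genes that is abundant in neural crest and connective tissue cells. Its level was 113, 106, and 102 CPM in the 3 control libraries, 33.2, 31.8, and 30.5 CPM in the treated osteoblasts, and 20.4, 20.1, and 19.4 CPM in the ECs. The groups did not overlap, and the treated osteoblasts lay much nearer to the ECs than to the controls. Snai2 had the largest change of the 7 factors with treatment. It was 3.36-fold lower in treated than in control osteoblasts, a log2 fold change of -1.75 with a standard error of 0.05 (edgeR quasi-likelihood test, adjusted p = 3.81e-14). Of all genes tested, 13.2% changed by more in either direction. ECs had 5.36-fold less Snai2 than the control osteoblasts (log2 fold change -2.42, SE 0.05, edgeR adjusted p = 3.49e-16). The treated osteoblasts still had 1.59-fold more than the ECs (log2 fold change 0.67, SE 0.05, edgeR adjusted p = 9.10e-09). The gene lies on chromosome 16 (GRCm38, 14705852 to 14709385, plus strand) and has 3 exons in the annotation.

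Snai1, the founding mammalian Snail repressor and the partner of Snai2, changed little beside it. Its 3 control libraries had 98.9, 94.98, and 94.0 CPM, the treated libraries 77.0, 82.9, and 74.2 CPM, and the EC libraries 57.8, 56.8, and 62.7 CPM. The groups stood in a clear order without overlap, but close together. The treated osteoblasts had 1.23-fold less Snai1 than controls (log2 fold change -0.30, SE 0.05, edgeR adjusted p = 8.18e-05), a change that 69.8% of the genes tested exceeded. When libraries were scaled by their totals only, this difference was -0.09 and was no longer called (edgeR adjusted p = 0.0832). That scaling also moved the median log2 fold change of all genes to 0.22, and relative to the median Snai1 changed by -0.31 under both scalings. ECs had 1.62-fold less Snai1 than controls (log2 fold change -0.70, SE 0.05, edgeR adjusted p = 3.59e-09). The treated osteoblasts had 1.32-fold more than ECs (log2 fold change 0.40, SE 0.05, edgeR adjusted p = 3.14e-06). Snai1 lies on chromosome 2 (GRCm38, 167538195 to 167542814, plus strand).

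Twist1 supports the early osteoblast lineage and restrains its maturation through Runx2. Its level was 122, 124, and 116 CPM in control osteoblasts and 63.5, 65.7, and 58.9 CPM in treated osteoblasts. The groups were far apart, and the treated mean was 52.0% of the control mean. The treated osteoblasts had 1.92-fold less Twist1 (log2 fold change -0.94, SE 0.05, edgeR adjusted p = 4.35e-11), and 30% of the genes tested changed by more. The EC libraries held 3, 3, and 4 counts of Twist1, which is 0.0687, 0.0914, and 0.0927 CPM. These values were at the lowest level that the depth could show. Pooled over libraries, Twist1 was 1455-fold higher in control osteoblasts than in ECs, with a 95% counting interval of 791 to 3034 (exact binomial, counting error only). The corresponding ratio for treated osteoblasts to ECs was 751, with an interval of 408 to 1566. Twist1 lies on chromosome 12 (GRCm38, 33957671 to 33959829, plus strand).

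Twist2, the second Twist factor, was barely expressed in these cells. Its counts were 21, 13, and 6 in the control libraries, 6, 3, and 4 in the treated libraries, and 1 in each EC library. These counts were too low for the filter, and Twist2 was not tested with the other genes. Pooled over libraries, the level in the treated osteoblasts was 0.435 times that in controls, with a 95% counting interval of 0.213 to 0.830, which leaves out the spread between cultures. In a fit of 29670 genes with no filter, the log2 fold change was -1.15 with a standard error of 0.53, and it was not called (edgeR adjusted p = 0.0704). Control osteoblasts had 10.8 times the EC level, with an interval of 3.45 to 54.8, and the fit with no filter called this difference (log2 fold change -3.29, SE 0.70, edgeR adjusted p = 8.21e-06). Twist2 lies on chromosome 1 (GRCm38, 91801461 to 91848028, plus strand). An antisense gene, Gm29100, shares exon bases with Twist2 and held 0 to 5 counts per library, and the strand setting of the counting is not given in the sources used here.

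Zeb2, a repressor of epithelial genes that is also expressed in neural and blood lineages, was higher in the treated osteoblasts than in either of the other groups. The control libraries had 128, 119, and 130 CPM, the treated libraries 172, 164, and 172 CPM, and the EC libraries 114, 115, and 113 CPM. The treated libraries stood apart above all others. The rise with treatment was 1.35-fold (log2 fold change 0.43, SE 0.04, edgeR adjusted p = 2.72e-07), and 58.6% of genes changed by more. The treated osteoblasts had 1.49-fold more Zeb2 than ECs (log2 fold change 0.57, SE 0.04, edgeR adjusted p = 5.83e-09). The difference between ECs and control osteoblasts was small (log2 fold change -0.14, SE 0.04, edgeR adjusted p = 0.00938), and it lost its call with DESeq2, with no filter, with scaling by library totals, and without control replicate 1 or 3 or any 1 EC replicate. Zeb2os, an antisense gene that shares 653 exon bases with Zeb2, held 5 to 34 counts per library, against at least 3747 for Zeb2, which lies on chromosome 2 (GRCm38, 44983632 to 45117395, minus strand).

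Zeb1, the other ZEB repressor, had the smallest change with treatment. It had 86.3, 75.2, and 80.7 CPM in control osteoblasts, 65.9, 69.9, and 69.7 CPM in treated osteoblasts, and 67.4, 67.0, and 71.0 CPM in ECs. The control libraries were above the others, and the treated and EC libraries overlapped. The treated osteoblasts had 1.18-fold less Zeb1 than controls (log2 fold change -0.24, SE 0.05, edgeR adjusted p = 8.17e-04), and ECs also had 1.18-fold less (log2 fold change -0.24, SE 0.05, edgeR adjusted p = 6.23e-04). Both calls were lost when libraries were scaled by their totals only, with log2 fold changes of -0.03 (edgeR adjusted p = 0.580) and -0.11 (edgeR adjusted p = 0.0518). Between treated osteoblasts and ECs the log2 fold change was 0.00, with a 95% confidence interval of -0.11 to 0.11 (edgeR adjusted p = 0.983). An opposite-strand gene, Gm10125, shares 198 exon bases with Zeb1 and held 8 to 121 counts per library, fewest in ECs.

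Prrx1, which marks skeletal progenitors of limb and calvaria, had a high level in osteoblasts and a low one in ECs. Its level was 834, 746, and 728 CPM in the controls and 495, 463, and 442 CPM in the treated osteoblasts, without overlap. Treatment was accompanied by a 1.65-fold decrease (log2 fold change -0.72, SE 0.07, edgeR adjusted p = 1.55e-07), and 39.9% of genes changed by more. The EC libraries held 141, 143, and 143 counts, which is 3.23, 4.36, and 3.31 CPM. The EC level was well above the lowest detectable one but was 0.472% of the control level (log2 fold change -7.74, SE 0.10, edgeR adjusted p = 7.89e-19). Prrx1 lies on chromosome 1 (GRCm38, 163245119 to 163313710, minus strand).

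Prrx2, the relative of Prrx1 with overlapping roles in craniofacial and limb development, moved the other way with treatment. The controls had 275, 294, and 278 CPM and the treated osteoblasts 366, 394, and 368 CPM. Every treated library was above every control. The rise was 1.33-fold (log2 fold change 0.41, SE 0.05, edgeR adjusted p = 1.39e-06), and 59.9% of genes changed by more. The EC libraries held 14, 13, and 11 counts, and the pooled level in control osteoblasts was 890-fold that in ECs, with a 95% counting interval of 648 to 1258. Prrx2 lies on chromosome 2 (GRCm38, 30834972 to 30881251, plus strand).

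Against ECs, the treated osteoblasts had more of 6 factors and less of 0, with Zeb1 not called, where 38.3% of all genes were called higher and 40.3% lower. The 4-fold calls were 3 higher (Twist1, Prrx1, and Prrx2) and 0 lower, against 10.3% and 15% over all genes. Twist1 and Prrx2 passed the filter through the osteoblast libraries, so the filter fixed their direction in this comparison too. The log2 difference between treated osteoblasts and ECs was 9.50 for Twist1, 7.02 for Prrx1, and 10.20 for Prrx2. Markers of mesenchymal cells were also measured in the ECs. The summed level of 7 fibroblast and mural markers was 29.6 to 31.9 CPM in ECs, 5402 to 6224 CPM in control osteoblasts, and 1612 to 1669 CPM in treated osteoblasts. Of these 7, 6 were tested, and all 6 were lower in ECs than in controls, Pdgfra the least (log2 fold change -0.87, SE 0.05). Dcn, Lum, and Cspg4 had a mean of 0.301, 0.102, and 0.0357 CPM in ECs. They passed the filter through the osteoblast libraries, so the filter fixed their directions. With treatment, 3 rose (Pdgfra, Pdgfrb, and Lum) and 3 fell (Col3a1, Dcn, and Cspg4), with a median log2 fold change of 0.20, and the lower sum reflects mainly Col3a1, which went from 5198 to 532 CPM. The part of such cells in the EC values of Prrx1, Prrx2, and Twist1 was not tested.

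**Figure D2:**
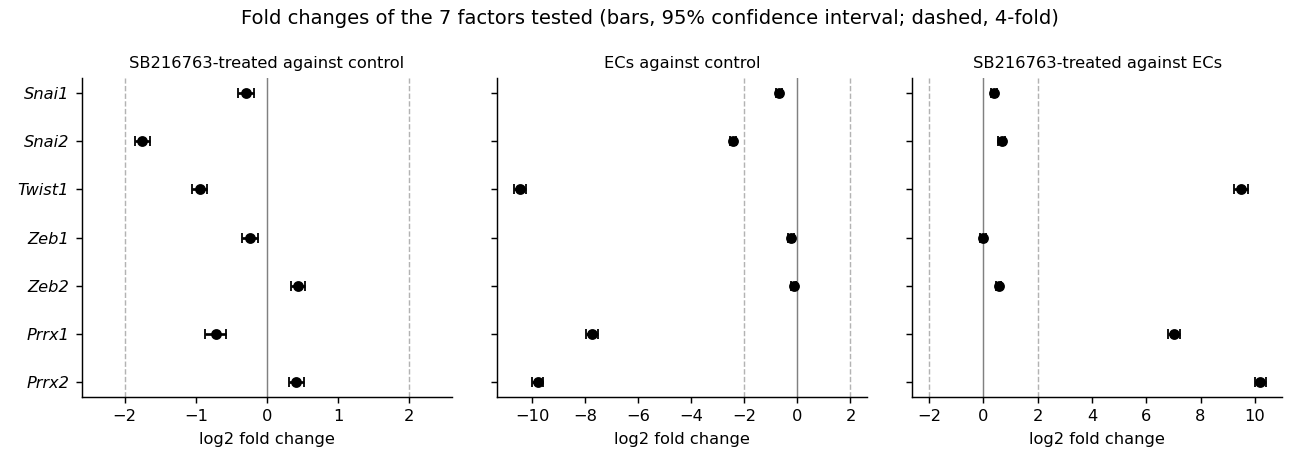
Log2 fold change (horizontal axis, with a different scale in the first panel) of the 7 factors tested in the 3 comparisons, with 95% confidence intervals from the edgeR fit and dashed lines at a 4-fold difference. Treatment changed no factor 4-fold, while Snai2, Twist1, Prrx1, and Prrx2 were past the line in the ECs. The comparisons share libraries.

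The 2 members of each family were set against each other within each library, which removes the scaling of the library. The ratio of Snai2 to Snai1, in CPM per kilobase of exon, was 0.916, 0.898, and 0.867 in the control libraries, 0.346, 0.308, and 0.330 in the treated libraries, and 0.283, 0.284, and 0.248 in the ECs. Snai2 went from near parity with Snai1 to well below it in treated cells, near the EC ratio. The log2 ratio differed by -1.45 between treated and control osteoblasts. The ratio of Zeb2 to Zeb1 went from 0.801 in controls to 1.27 in treated osteoblasts, a log2 difference of 0.67, and was 0.857 in ECs. The ratio of Prrx2 to Prrx1 went from 2.07 in controls to 4.55 in treated osteoblasts, a log2 difference of 1.13, and was 0.4997 in ECs. The SD of the log2 ratio within each group was at most 0.19 for these 3 pairs. In these 3 pairs, no treated library overlapped a control library, and the exact permutation p of the ratio was 0.1 in each case, the smallest that 3 against 3 libraries allow. The share of all gene pairs without overlap was not computed. Of all genes tested, 32.9% were called higher and 32% lower with treatment, so separation alone says little. Over the 7 differences of this kind that were tested, the adjusted p was 0.14. For Twist2 to Twist1 the log2 difference was -0.21 (exact permutation p = 0.7), and it rested on few Twist2 counts.

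**Figure D3:**
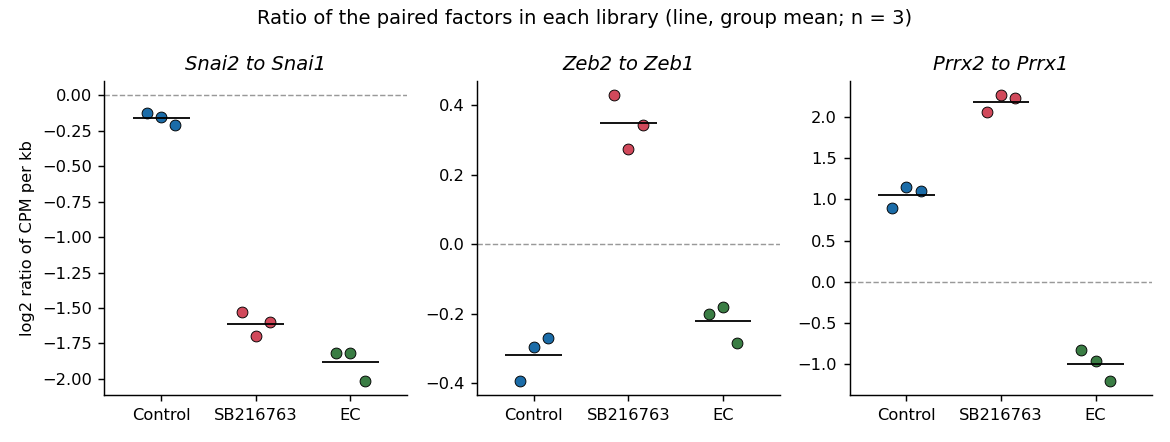
Log2 ratio of CPM per kilobase of exon between paired factors in each library (vertical axis, with a separate scale for each pair) for the 3 groups on the horizontal axis, with the group mean as a line. The treated libraries sit below the controls for Snai2 to Snai1 and above them for Zeb2 to Zeb1 and Prrx2 to Prrx1. In the first pair the ECs sit near the treated osteoblasts.

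The summed level of each family moved less than its members did in the ZEB and Prrx pairs. In both pairs 1 member fell and the other rose, so the change of the sum had to lie between theirs. Zeb1 plus Zeb2 was 14.2 ± 0.782 CPM per kilobase (SD, n = 3) in controls and 15.2 ± 0.200 in treated osteoblasts. Prrx1 plus Prrx2 was 213 ± 5.32 CPM per kilobase in controls and 234 ± 7.999 in treated osteoblasts. Snai1 plus Snai2 went from 112 ± 4.40 to 63.9 ± 2.99 CPM per kilobase. The sums were an addition made after the data were seen. Each of these 3 differences had an exact permutation p of 0.1, the smallest possible, and the p of the Prrx sum was 0.3 when the median coding transcript was used as the length.

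Between genes, levels were compared only per kilobase of exon. In control osteoblasts Prrx2 was highest with 144 ± 5.37 CPM per kilobase (SD, n = 3), followed by Twist1 with 74.1 ± 2.72 and Prrx1 with 69.5 ± 5.12, whose libraries overlapped. Snai1 with 59.2 ± 1.60, Snai2 with 52.9 ± 2.83, Zeb1 with 7.86 ± 0.540, Zeb2 with 6.30 ± 0.293, and Twist2 with 0.0815 ± 0.0202 followed without overlap. In treated osteoblasts Prrx2 remained first with 192 ± 8.04, ahead of Snai1 with 48.1 ± 2.72. Prrx1 and Twist1 came next and overlapped, with 42.1 ± 2.40 and 38.5 ± 2.12. Snai2 had 15.8 ± 0.674 CPM per kilobase in these cells, and Zeb2 with 8.50 ± 0.225 was above Zeb1 with 6.68 ± 0.22005. In ECs Snai1 was first with 36.5 ± 1.94 CPM per kilobase, then Snai2 with 9.88 ± 0.267, Zeb1 with 6.67 ± 0.215, and Zeb2 with 5.71 ± 0.0391. Prrx1, Prrx2, Twist1, and Twist2 were at or below 0.328 CPM per kilobase in ECs. The order depends on the length used, since the joined exons of Zeb1, Zeb2, and Prrx1 are much longer than their median coding transcript. The annotation has 3, 17, and 3 coding transcripts of these genes. With the median coding transcript, Prrx2 stayed first in osteoblasts, with 225 CPM per kilobase in controls and 299 in treated cells. The ZEB factors then stood higher, and in ECs Zeb1 was first with 76.1 and Zeb2 next with 64.7 CPM per kilobase, ahead of Snai1. These values follow from short median lengths, 900 bases for Zeb1 and 1762 for Zeb2. Their exons together span 10266 and 19942 bases. Which length applies in these cells was not tested, so the place of the ZEB factors in the order is not settled.

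**Figure D4:**
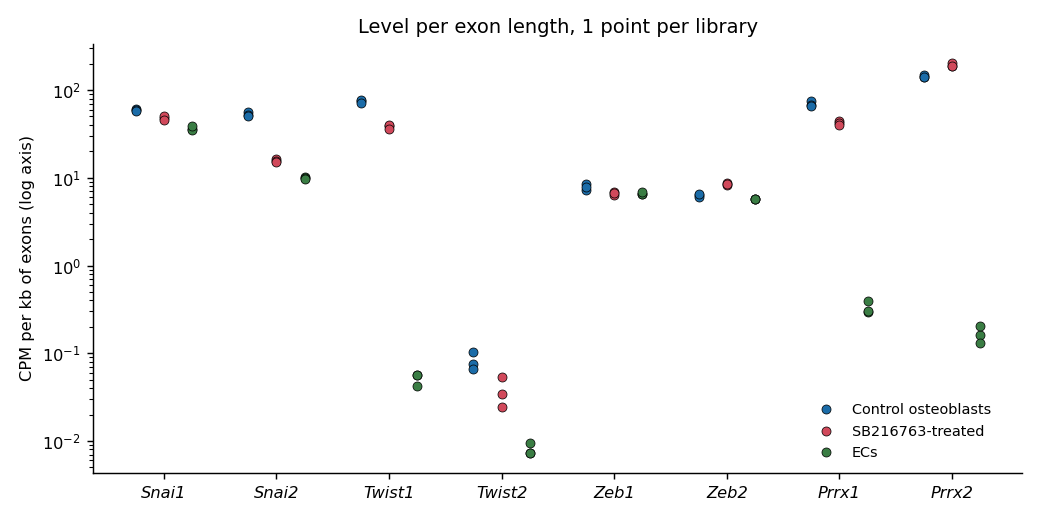
CPM per kilobase of exon (log axis) of the 8 factors, with 1 point per library and the color giving the group. Snai1, Zeb1, and Zeb2 differ little between groups on this axis and Snai2 is lower in treated osteoblasts and ECs, while Twist1, Prrx1, and Prrx2 are at or below 0.328 CPM per kilobase on average in ECs.

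Sequence just upstream of the start was looked at for the factors with a RefSeq promoter entry on GRCm38.p6, which were 6 of the 8. Windows of 250 bases before the start were searched on both strands for CAGGTG, the E-box that Snail and ZEB factors prefer, for CTTTGA, letters at the core of the sites of TCF and LEF factors that work with beta-catenin downstream of GSK3, and for CANNTG, which includes the first motif. Of 32851 such windows of mouse genes, 17.2% held CAGGTG, 13.8% held CTTTGA, and 66.2% held CANNTG. Among the 6 factors, the Snai1 window alone held CAGGTG, once, in the reverse orientation as CACCTG, and it began 126 bases before the start. It was also the only CANNTG in these windows. CTTTGA was in none of them, which says only that these letters are missing from the windows. The windows of the 3 factors that were called lower with treatment and have an entry are shown, so that the sites searched can be seen, with the E-box in capitals. The stretch of Prrx1 is limited to the 190 bases outside annotated exons. GC content was 70.0% for Snai1, 62.4% for Twist1, and 48.9% for the stretch of Prrx1, against a median of 52.4% over all windows.
Snai1, GRCm38.p6 chr2:167537945-167538194, plus strand: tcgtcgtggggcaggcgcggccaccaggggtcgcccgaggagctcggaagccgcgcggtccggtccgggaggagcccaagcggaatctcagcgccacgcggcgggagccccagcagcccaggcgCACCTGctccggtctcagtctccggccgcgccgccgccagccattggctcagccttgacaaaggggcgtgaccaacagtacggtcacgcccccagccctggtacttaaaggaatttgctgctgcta
Twist1, GRCm38.p6 chr12:33957421-33957670, plus strand: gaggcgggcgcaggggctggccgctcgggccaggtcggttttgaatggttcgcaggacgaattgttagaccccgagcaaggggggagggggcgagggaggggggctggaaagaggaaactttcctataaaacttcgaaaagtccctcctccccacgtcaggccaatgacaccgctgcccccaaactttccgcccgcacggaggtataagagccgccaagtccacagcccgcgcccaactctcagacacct
Prrx1, GRCm38.p6 chr1:163313711-163313900, minus strand: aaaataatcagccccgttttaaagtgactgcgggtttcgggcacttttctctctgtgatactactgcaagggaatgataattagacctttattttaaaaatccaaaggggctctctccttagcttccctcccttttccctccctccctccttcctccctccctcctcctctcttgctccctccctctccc

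E proteins are the dimer partners of Twist factors, and Id proteins take those partners away. Of the 7 genes in this list, 1 rose, 4 fell, and 2 were not called in treated osteoblasts, with a median log2 fold change of -0.48. In this list and those that follow, counts of calls are to be set against the 32.9% of all genes called higher and the 32% called lower with treatment, and the 39% higher and 37.9% lower in ECs. Id4 fell from 4.17 ± 0.566 to 1.46 ± 0.292 CPM (SD, n = 3), a log2 fold change of -1.52 (SE 0.16, edgeR adjusted p = 3.30e-07). Id3, a common BMP target, fell from 144 ± 6.93 to 58.0 ± 1.54 CPM (log2 fold change -1.31, SE 0.05, edgeR adjusted p = 1.48e-12). Id1 rose from 4.86 ± 0.375 to 8.21 ± 0.322 CPM (log2 fold change 0.77, SE 0.07), and Id2 fell (log2 fold change -0.57, SE 0.05). Among the E proteins, Tcf3 fell by 0.48 on the log2 scale (SE 0.05), Tcf4 had a log2 fold change of -0.12 (SE 0.05, edgeR adjusted p = 0.0474), and Tcf12 one of 0.02 (SE 0.04, edgeR adjusted p = 0.709). In ECs, where Twist1 was near 0, 3 genes were higher and 3 lower than in control osteoblasts. Id1 had a log2 fold change of 5.45 (SE 0.06) and reached 211 ± 5.56 CPM in ECs. Id2 had one of 3.37 (SE 0.05), Id4 one of -5.35 (SE 0.26), and Tcf3 one of -0.58 (SE 0.05), all called. Id4 held 6, 3, and 3 counts in the EC libraries. It passed the filter through the osteoblast libraries, so the filter fixed its direction in ECs.

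The corepressors are the proteins that Snail and ZEB factors bring to their targets. Of 10, 3 were higher and 4 lower in treated osteoblasts, with a median log2 fold change of -0.10, and a share of calls near that over all genes (32.9% higher and 32% lower). The histone deacetylase Hdac2 fell from 244 ± 6.71 to 113 ± 2.97 CPM (SD, n = 3), a log2 fold change of -1.11 (SE 0.04, edgeR adjusted p = 1.51e-12). Ctbp2, a binding partner of ZEB factors, fell from 53.1 ± 1.30 to 31.3 ± 1.37 CPM (log2 fold change -0.76, SE 0.05, edgeR adjusted p = 3.34e-10). Its relative Ctbp1 rose (log2 fold change 0.38, SE 0.05), as did the Snail-binding LIM protein Limd1 (0.58, SE 0.04) and the scaffold Sin3a (0.47, SE 0.05). The demethylase Kdm1a had a log2 fold change of 0.03 (SE 0.04, edgeR adjusted p = 0.563). In ECs 3 corepressors were higher and 5 lower than in control osteoblasts, with Hdac1 lowest at a log2 fold change of -1.24 (SE 0.05). Kdm1a (-0.77, SE 0.04), Wtip (-0.76, SE 0.06), and Hdac2 (-0.71, SE 0.04) were also lower there.

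Genes for protein turnover of the factors include the GSK3 kinases, the ubiquitin ligases that degrade Snai1, Snai2, and Twist1, and the enzymes that stabilize Snai1. Of 11, 4 were higher and 1 lower in treated osteoblasts, with a median log2 fold change of 0.04. Scaling by library totals raised the number called from 5 to 9, so the calls near the threshold depend on the scaling. Usp27x, a deubiquitinase of Snai1, rose from 4.35 ± 0.647 to 8.73 ± 0.414 CPM (SD, n = 3; log2 fold change 1.03, SE 0.10, edgeR adjusted p = 1.13e-07). The ligase subunit Btrc (0.41, SE 0.05) and the phosphatase Ctdsp1 (0.39, SE 0.05) were higher on the log2 scale. The kinase Lats2 fell from 107 ± 2.97 to 66.6 ± 3.27 CPM (log2 fold change -0.69, SE 0.05, edgeR adjusted p = 1.53e-09). The targets of the inhibitor were not called at the RNA level, with a log2 fold change of 0.03 (SE 0.05, edgeR adjusted p = 0.613) for Gsk3a and -0.16 (SE 0.05, edgeR adjusted p = 0.0182) for Gsk3b. In ECs 4 of these genes were higher and 1 lower than in controls, with Usp27x at a log2 fold change of 1.64 (SE 0.09), Lats2 at 0.43 (SE 0.05), Ctdsp1 at -0.31 (SE 0.05), and Fbxo45 at 0.29 (SE 0.05).

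The epithelial genes that Snail and ZEB factors repress were almost silent in osteoblasts. All 24 were below 1 CPM on average in control and treated osteoblasts, and their summed level was 0.583 to 0.938 CPM in controls and 0.261 to 0.763 CPM in treated osteoblasts. Only 4 passed the filter (Ocln, Grhl1, Grhl2, and St14), and they passed through the EC libraries. In osteoblasts they were near the lowest level that the depth could show, so the 0 calls with treatment (edgeR, with 0 also at an unadjusted p under 0.05 and 0 with DESeq2 or limma-voom) say nothing about these genes there, and their higher level in ECs was fixed by the filter. Cdh1, which encodes E-cadherin and is the classic target, held 12, 8, and 5 counts in controls, 0, 1, and 0 in treated osteoblasts, and 0, 0, and 2 in ECs. It did not pass the filter, and a fit with no filter called it lower in treated osteoblasts (log2 fold change -3.83, SE 1.03, edgeR adjusted p = 6.19e-04) and in ECs (log2 fold change -3.16, SE 0.90, edgeR adjusted p = 0.00112). The tight junction gene Ocln, in contrast to Cdh1, had 13.2, 12.9, and 13.0 CPM in the EC libraries and a total of 1 count in the 3 control libraries. The transcription factor genes Grhl1 and Grhl2 and the protease gene St14 had a mean of 0.730, 0.517, and 0.704 CPM in ECs.

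The mesenchymal genes were the largest of these lists with 22 members, of which 21 were tested. In treated osteoblasts 7 were higher, 12 lower, and 2 not called, with a median log2 fold change of -0.97, against 0.01 over all genes. Tenascin (Tnc) fell from 1925 ± 459 to 92.5 ± 10.2 CPM (SD, n = 3; log2 fold change -4.38, SE 0.15, edgeR adjusted p = 2.47e-13). Smooth muscle actin (Acta2) fell from 2915 ± 95.8 to 144 ± 9.10 CPM (log2 fold change -4.34, SE 0.06, edgeR adjusted p = 2.06e-17). Tagln also fell (log2 fold change -3.37, SE 0.28), from a low 1.89 ± 0.348 CPM. Fap, a protease of activated fibroblasts, rose from 0.115 ± 0.0272 to 1.46 ± 0.389 CPM (log2 fold change 3.63, SE 0.33, edgeR adjusted p = 2.46e-07). Its control libraries held 6, 8, and 3 counts. Fap passed the filter through the treated libraries, so the filter fixed the direction of this rise. In ECs 16 were lower, 4 higher, and 1 not called. Lox (log2 fold change -10.57, SE 0.10), Col3a1 (-9.71, SE 0.12), and Postn (-9.18, SE 0.08) were the lowest there, followed by the osteoblast cadherin Cdh11 (-9.05, SE 0.12). Cdh11 rose in treated osteoblasts, by 1.66 on the log2 scale (SE 0.08).

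Of 16 related transcription factors, relatives of the 8 factors in structure, 7 passed the filter. In treated osteoblasts 1 was higher, 3 lower, and 3 not called. Scx, the tendon helix-loop-helix factor, fell from 64.3 ± 2.39 to 3.25 ± 0.687 CPM (SD, n = 3; log2 fold change -4.30, SE 0.09, edgeR adjusted p = 8.46e-16). Gsc fell from 10.2 ± 0.768 to 1.94 ± 0.28 CPM (log2 fold change -2.38, SE 0.12, edgeR adjusted p = 2.76e-10). Alx4, a homeodomain factor of the calvaria, rose by a log2 fold change of 0.31 (SE 0.05, edgeR adjusted p = 2.02e-05), and Alx1 had one of -0.07 (SE 0.05, edgeR adjusted p = 0.199). In ECs 6 of the 7 were lower than in control osteoblasts and 1, Tcf15, which passed the filter through the ECs, was higher. Of those that were lower, all but Shox2 were at or below 0.250 CPM on average in ECs and had passed through the osteoblasts, so the filter fixed these directions. Alx4 had a log2 fold change of -9.34 (SE 0.10), Alx1 one of -9.11 (SE 0.12), and Scx one of -7.98 (SE 0.14) in ECs. Gsc was at 0 in the EC libraries and at least 112-fold lower than in controls, taking 3 counts per library as the floor.

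**Figure D5:**
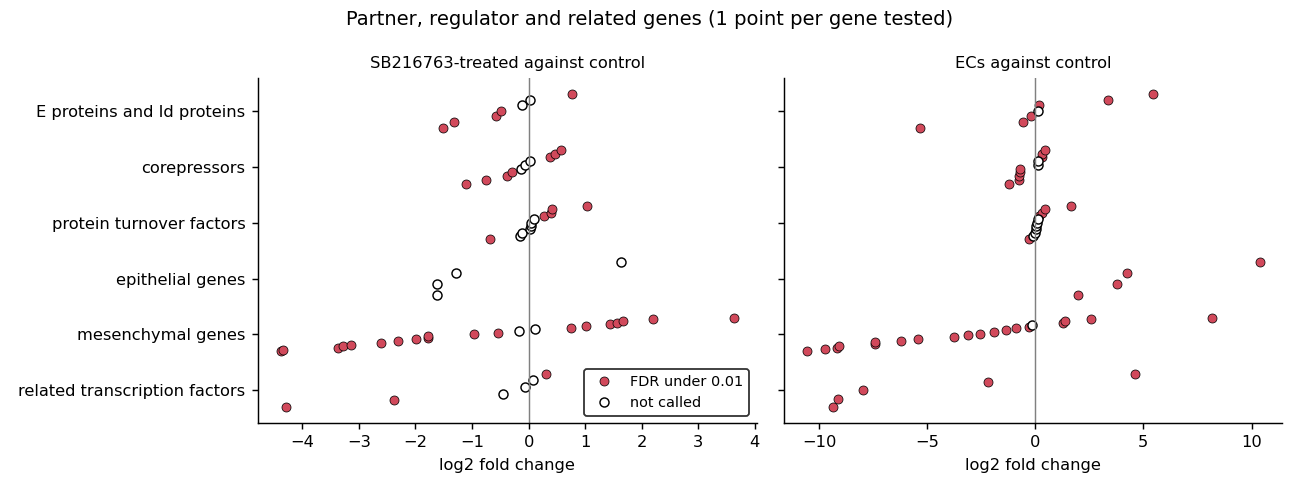
Log2 fold change (horizontal axis, with a separate scale for each panel) of every gene tested in the 6 lists, for treated against control osteoblasts and for ECs against control osteoblasts. Filled points were called at an FDR under 0.01 and open points were not, and genes at 0 in the treated cells or the ECs of the panel are left out. Corepressors and turnover genes lie between -1.24 and 1.64 in both panels, and mesenchymal genes spread more widely, from -10.57 to 8.15 in ECs.

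For each factor, the genes with the most similar pattern over the 9 libraries were found by the Pearson correlation of log2 CPM, among 10260 genes of at least 10 CPM in 1 group. The 9 libraries fall into 3 groups, so the values describe mainly the relative spacing of the 3 group means and carry no p. They do not depend on the size of the differences. Twist1 was closest to Gpc1, a glypican (r = 0.99996), which had 1672 ± 48.2 CPM in controls, 848 ± 41.7 in treated osteoblasts, and 1.69 ± 0.113 in ECs (SD, n = 3). Txlna came next, with much smaller differences, at 127 ± 0.562, 119 ± 1.02, and 69.7 ± 0.542 CPM in the same groups. Prrx1 was closest to the complement protease gene C1s1 and to Dact1 (r = 0.9996 for both), and Prrx2 to the lipid transfer gene Pltp and to Arhgap28 (r = 0.9998 for both). Arhgap28 had 100 ± 1.70 CPM in controls, 110 ± 0.480 in treated osteoblasts, and 18.5 ± 0.728 in ECs, smaller differences than those of Prrx2. Pltp, like Prrx2, was higher in treated than in control osteoblasts, with 378 ± 20.3 against 272 ± 6.02 CPM. Snai2 was closest to Fig4 and Rab30 (r = 0.999 for both), and Snai1 to Crtap and Ttc26 (r = 0.994 and 0.993). Zeb2 was closest to Kmt5b and Map3k2 (r = 0.997 for both). Zeb1, with the smallest spread between groups, had the weakest neighbors, Pde4dip and Klf13 (r = 0.983 and 0.978).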

How the data were processed

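RNA-Seq libraries of control osteoblasts, SB216763-treated osteoblasts, and ECs (n = 3 each) were used. The authors used STAR for alignment and gene counting, version 2.5.3a per the labels, and deposited the raw counts. The genome build, annotation, and strand setting are not given in the sources used here. Groups came from sample titles and treatment entries. The members and lists were chosen with earlier results of these data known.

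Counts were tested in R 4.3.3 with edgeR 4.0.16 (filterByExpr, TMM, quasi-likelihood test, all 9 libraries) and Benjamini-Hochberg adjustment over 15531 genes. Fold changes used a prior count of 0.125 and log2 CPM a prior count of 2. No replicates agreed within sampling noise, and no label says that they were separate cultures or animals, so p-values measure only the spread between these libraries. Exon lengths and positions came from GENCODE mouse release 21 on GRCm38. Ratios of paired genes were compared by 2-sided exact permutation tests. Alternatives included limma 3.58.1 (voom), DESeq2 1.42.0, other scalings and filters, fits of 2 groups, a replicate block, and leaving out each library. From each list, up to 4 called genes with the largest change per comparison were named, plus genes chosen after their values were seen (Tcf4, Tcf12, Ctbp1, Kdm1a, Gsk3a, Gsk3b, Cdh1, Cdh11, Alx1, and Tcf15). For each factor, 2 genes of similar pattern were named. One result that this rule would name is not reported here.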

Additional observations from a re-analysis of the deposited data

How the results depend on the processing

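Over the alternatives, the 7 factors kept the direction of their fold change with treatment, and the number called stayed at 7 without each library in turn. The log2 fold change of Snai2 ran from -1.79 to -1.55, that of Twist1 from -0.98 to -0.74, and that of Prrx1 from -0.77 to -0.52. Snai1 and Zeb1 lost their calls when libraries were scaled by totals only, which shifted the median of all genes to 0.22 with treatment and to 0.13 in ECs and raised the share of calls that were higher with treatment from 50.7% to 63.7%. The cause was not tested. With a log2 threshold of 1 in place of 2, 1 factor, Snai2, passed with treatment. Scaling by totals called 9 turnover genes with treatment and 8 in ECs, against 5 and 5. With no filter, 1 epithelial gene was called with treatment and 7 in ECs, as more genes were tested. The log2 ratio of Twist2 to Twist1 turned to 0.0886 without SB216763 replicate 2 (exact permutation p = 0.8).

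Without 1 library at a time, the factors called were 6 to 7 in ECs against controls and 6 in treated osteoblasts against ECs, and 4-fold calls stayed at 0, 4, and 3 in the 3 comparisons. With treatment, the difference of the log2 ratio ran from -1.49 to -1.40 for Snai2 to Snai1, from 0.63 to 0.70 for Zeb2 to Zeb1, from 1.06 to 1.196 for Prrx2 to Prrx1, and from -0.50 to 0.0886 for Twist2 to Twist1. The call of Zeb2 between ECs and controls was lost without control replicate 1 or 3 or without any EC replicate (adjusted p 0.0193 to 0.0385), and with DESeq2 (0.0160), no filter (0.0281), or scaling by totals (0.778). Deviations of same-numbered libraries correlated between -0.0392 and 0.123. Differently numbered libraries were not compared, so these values cannot show whether the libraries were paired. A fit with the replicate block left the number of factors called at 7, 7, and 6.

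Twist2, the epithelial genes, and the EC values of Twist1 and Prrx2 are limited by counts, and their intervals cover counting error only.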
